A study of Mus musculus with 4 samples.

Results

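The genes described here encode the pore-forming and accessory subunits of voltage-gated calcium and sodium channels and of potassium channels. They were chosen by symbol: those that begin with Cacna1, Cacna2d, Cacnb or Kcn, or with Scn followed by a digit and the letter a or b. Of 29161 genes in the count table, 122 matched, and 27 of these had at least 5 counts in at least 10 of the 290 cells and were kept. The 27 comprised 6 of 18 calcium channel genes, 20 of 92 potassium channel genes (by symbol, which takes in the noncoding Kcnq1ot1) and 1 of 12 sodium channel genes, Scn3a. Just inside the minimum were Kcnj11 and Kcne3 with 10 cells each and Kcnt1 with 11, and just outside it were Cacna1e and Kcng2 with 9 cells each and Kcnmb2 with 8. A minimum of 20 cells would have kept 23 genes. The minimum was applied to all cells together, so a gene found mainly in 1 class entered through that class, and counts over the kept genes are descriptions of the kept genes only.

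Enteroendocrine cells are the hormone-secreting cells of the gut epithelium, and many of them are electrically excitable. Sodium and calcium channels carry the inward current that depolarises the cell and admits the calcium that triggers release, whereas potassium channels set the resting potential and end each depolarisation. Enterochromaffin cells make serotonin with the enzyme Tph1, other subtypes make peptides such as Cck, Gip, Gcg products and ghrelin (Ghrl), and Neurog3 is the transcription factor that starts the endocrine programme.

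The cells came from small intestinal enteroids (epithelial organoids) of female CD1 mice that carry the Neurog3eYFP reporter allele beside a normal allele (Neurog3eYFP/+). The enteroids grew in Matrigel domes, in medium with noggin, EGF and R-spondin-1. Living eYFP-positive cells were sorted 1 to a well into 4 plates: duodenum at 39 weeks (plate 1), duodenum at 12 weeks (plates 2 and 3) and jejunum at 12 weeks. The sort on the reporter limits the data to cells that express Neurog3 or have recently done so, reporter-negative cells were not analysed here, and the number of mice behind a plate is not given in the sources used here. All classes below share the reporter allele, the sort and the culture medium.

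Each cell was classed by 3 rules on genes outside the channel list. Tph1-high cells had a Tph1 level of at least 200 CPM (counts per 1000000 counts), peptide-high cells at least 1000 CPM of Cck, Gip, Gcg or Ghrl, and Neurog3-positive cells at least 5 counts of Neurog3. Cells that met a single rule numbered 77 (Tph1-high: 17, 22 and 11 on duodenum plates 1, 2 and 3, and 27 on the jejunum plate), 45 (peptide-high: 2, 20, 9 and 14) and 31 (Neurog3-positive: 4, 7, 16 and 4). A further 22 cells met more than 1 rule, 17 of them the Tph1 and Neurog3 rules together, and 115 cells met none and are called unclassed. Counts were summed over the cells of a class on a plate, and a sum was tested when it held at least 5 cells: 4 Tph1-high, 3 peptide-high, 2 Neurog3-positive and 4 unclassed sums. The plate is the replicate in every test, and levels are CPM of these sums.

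The classes also differed in depth, RNA quality and other markers. Median counts per cell were 527643 in Tph1-high, 507319 in peptide-high, 368037 in Neurog3-positive and 371494 in unclassed cells, and mitochondrial genes took 4.94%, 4.62%, 9.17% and 7.74% of the counts. The 9 enterochromaffin markers, which include the class-defining Tph1, summed to 82968 to 120051 CPM per plate in Tph1-high cells. Of this, Chgb alone was at 65221 to 96288 CPM. The sum was 10481 to 18839 CPM in peptide-high and 3604 to 10410 CPM in unclassed cells. All 9 had counts in each class, so presence alone did not separate the classes. The 10 peptide hormone markers, the 4 class-defining hormones among them, summed to 40157 to 125443 CPM per plate in peptide-high cells. In unclassed cells they summed to 61.8 to 5841 CPM. Sst, outside the peptide rule, was at 0 to 5482 CPM in unclassed and 0 to 3094 CPM in peptide-high cells. The unclassed reference was thus not free of hormone transcripts. The 6 goblet markers summed to 14721 to 17418 CPM per plate in unclassed cells. There Tff3 alone was at 11972 to 13842 CPM, whereas Spdef was at 0 to 40.6 CPM and Clca1 at 0 to 0.461 CPM. In Tph1-high cells the goblet markers summed to 351 to 1362 CPM, with Clca1 at 0 counts. In peptide-high cells they reached 2601 to 8001 CPM and in Neurog3-positive cells 9054 to 22510 CPM. The 5 Paneth markers summed to 3515 to 11548 CPM in unclassed and 359 to 1271 CPM in peptide-high cells, and the 4 enterocyte markers in the table to 693 to 1576 CPM and 861 to 4438 CPM, with Apoa1 at 0 counts in both. The summed fibroblast and immune markers reached 805 to 2777 CPM in Tph1-high cells, almost all of it Vim, with Col3a1 at 0 counts. The part these differences play in the channel results was not tested, except where a value without the goblet-rich cells is given. Counts are reads that may include PCR copies, so intervals on shares cover counting error only.

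For 6 channel genes the summed level was higher on every peptide-high plate than on any unclassed plate, and 4 of them have a promoter in the RefSeq table: Kcnk16, Kcnj3, Kcnh2 and Cacna2d1. The promoters of Kcnk16 and Kcnj3 are shown as those that held the motif searched, and the windows of Kcnh2 and Cacna2d1 held 0 matches. Both are RefSeq windows on GRCm38.p6 that run from 250 bases before to 50 bases after the gene's start, written 5′ to 3′ in the direction of the gene. Capitals mark CANNTG, the E-box motif that basic helix-loop-helix factors such as Neurog3 recognise, which reads the same on both strands. The window of Kcnk16 lies on chr14:20269220-20269519 (minus strand) and that of Kcnj3 on chr2:55435720-55436019 (plus strand).
Kcnk16: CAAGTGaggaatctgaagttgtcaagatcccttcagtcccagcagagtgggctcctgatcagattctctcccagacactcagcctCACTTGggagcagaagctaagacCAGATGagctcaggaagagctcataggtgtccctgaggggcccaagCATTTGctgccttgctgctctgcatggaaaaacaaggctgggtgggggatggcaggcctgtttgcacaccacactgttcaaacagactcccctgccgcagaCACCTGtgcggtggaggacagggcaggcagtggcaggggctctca
Kcnj3: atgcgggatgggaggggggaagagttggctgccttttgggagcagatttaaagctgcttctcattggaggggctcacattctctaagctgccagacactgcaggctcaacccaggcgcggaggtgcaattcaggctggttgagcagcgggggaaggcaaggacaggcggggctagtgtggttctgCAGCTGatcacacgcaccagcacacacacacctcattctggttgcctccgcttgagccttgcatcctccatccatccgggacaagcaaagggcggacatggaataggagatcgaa
The Kcnk16 window held 5 matches and the Kcnj3 window 1. The Kcnk16 count was the highest among the 15 channel genes with a promoter in the table, so it is a maximum picked from many. At least 1 match was present in 72.3% of the 32851 promoters in the same table and at least 5 in 2.10%. Of the 27 channel genes, 15 had a promoter in the table, with 20 promoters among them, and 11 of those genes had at least 1 match in any promoter. This counts genes, whereas the 72.3% counts promoters, so the 2 shares are not in like units. A match describes the letters of this window and does not show a binding site.

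Scn3a, the single sodium channel gene kept, encodes the pore-forming subunit of a voltage-gated sodium channel of the tetrodotoxin-sensitive group (chr2:65457118-65567627 on GRCm38, minus strand). It was the only 1 of the 27 channel genes to pass the edgeR test in a class comparison. Its level in Tph1-high cells was 1236 CPM on duodenum plate 1, 1466 CPM on plate 2, 1017 CPM on plate 3 and 1088 CPM on the jejunum plate. In unclassed cells it was 123, 78.0, 74.6 and 46.5 CPM in the same order. No unclassed plate came near the Tph1-high range, and the 4 Tph1-high sums lay close together across tissue and age. The log2 fold change was 3.79 ± 0.74 (SE worked out from the F statistic, higher on 4 of 4 plates). It passed the test (edgeR quasi-likelihood test, Benjamini-Hochberg adjusted p = 0.0362).

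Scn3a was found in nearly every single Tph1-high cell. At least 5 counts were present in 76 of 77 of them (98.7%, exact Clopper-Pearson 95% interval 93.0 to 100.0%), against 42.2% of peptide-high, 35.5% of Neurog3-positive and 27.8% of unclassed cells. After every cell was thinned to 100000 counts, at least 1 count remained in 98.7% of Tph1-high, 55.6% of peptide-high, 45.2% of Neurog3-positive and 52.2% of unclassed cells. Most of the positive cells outside the Tph1-high class held little: a level of 100 CPM, a limit chosen after the values were seen, was reached by 73 of 77 Tph1-high, 8 of 45 peptide-high, 5 of 31 Neurog3-positive and 15 of 115 unclassed cells. On each unclassed plate a single cell supplied 61.2 to 85.2% of the Scn3a counts. Tph1 itself stood at 3.72 to 21.7 CPM in the tested sums of the other classes, which exclude Tph1-high cells. The part that reads carried over between wells play in such low counts was not tested.

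The Scn3a call depended on which plates were used, on the class limits and on which cells served as the reference. Across 13 alternative analyses the log2 fold change ran from 3.05 to 5.21, always higher in Tph1-high cells, and 8 of the 13 passed. It missed the threshold without duodenum plate 1 (edgeR adjusted p = 0.130), without duodenum plate 3 (edgeR adjusted p = 0.0870) and without the jejunum plate (edgeR adjusted p = 0.234), and passed without duodenum plate 2 (edgeR adjusted p = 0.0219). With class limits halved it also missed (edgeR adjusted p = 0.0636). Without the 77 unclassed cells that held at least 5000 CPM of goblet and Paneth markers, the estimate was 3.05 (edgeR adjusted p = 0.372).

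Cells that carried Tph1 and Neurog3 transcripts together also held Scn3a. All 17 of them had at least 5 counts, with a lowest cell of 203 CPM, a median of 943 CPM and a highest cell of 2294 CPM. In cells positive for Neurog3 alone, Scn3a was at 164 CPM on duodenum plate 2 and 32 CPM on plate 3, and a single cell supplied 77.8% and 90.5% of those counts.

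In peptide-high cells Scn3a stood at 21.1 CPM on duodenum plate 2, 253 CPM on plate 3 and 80.9 CPM on the jejunum plate. These sums overlapped the unclassed plates and lay below every Tph1-high plate. Tph1-high against peptide-high cells gave a log2 fold change of 3.31 ± 0.84, which did not pass (edgeR adjusted p = 0.362; DESeq2 adjusted p = 2.81e-04; limma on cell means adjusted p = 4.90e-04). Within the peptide rules, Scn3a was present at 5 counts or more in 8 of 11 Gcg-high cells, 16 of 31 Cck-high cells, 6 of 16 Ghrl-high cells and 4 of 10 Gip-high cells. These groups share cells and were not tested against each other.

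**Figure D1:**
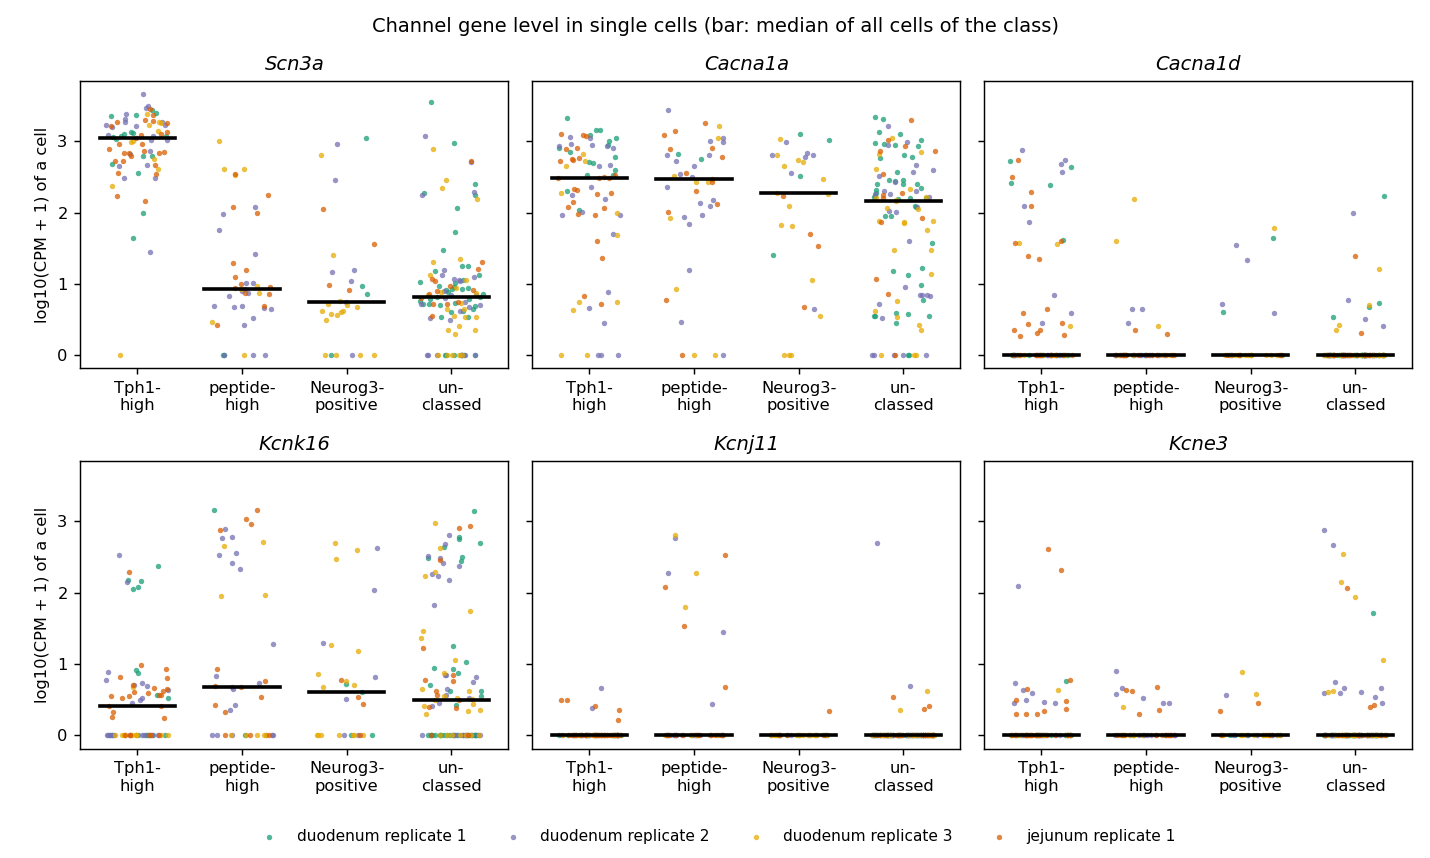
Level of 6 channel genes in single cells, as log10(CPM + 1), by class (77 Tph1-high, 45 peptide-high, 31 Neurog3-positive and 115 unclassed cells). Each point is a cell coloured by plate and each bar is the median of the class. Scn3a forms a dense band near 1000 CPM in Tph1-high cells. Kcnk16 and Kcnj11 are high in a minority of peptide-high cells, and Kcne3 is high in a handful of unclassed and Tph1-high cells.

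Among the calcium channel genes, Cacna1a, the pore-forming subunit of P/Q-type channels, was the most widespread channel gene, with at least 5 counts in 232 of 290 cells. Its level was 822, 306, 170 and 335 CPM in Tph1-high cells, 432, 352 and 439 CPM in peptide-high cells (duodenum plates 2 and 3, jejunum), 600 and 228 CPM in Neurog3-positive cells (duodenum plates 2 and 3) and 356, 198, 119 and 388 CPM in unclassed cells. The ranges of all 4 classes overlapped. The largest estimate was for Neurog3-positive against unclassed cells, at 1.11 ± 0.35 on the log2 scale, and did not pass (edgeR adjusted p = 0.772).

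Cacna1d, the pore-forming subunit of an L-type channel that opens at fairly negative potentials, had its highest tested sum in Tph1-high cells. It stood at 98.9, 94.4, 7.47 and 43.0 CPM in Tph1-high cells and at 3.92, 3.04, 0.749 and 2.10 CPM in unclassed cells, so the plates of these classes did not overlap. Peptide-high cells were at 0.457, 23.96 and 0.194 CPM, on duodenum plate 3 above the Tph1-high sum of that plate, and Neurog3-positive cells at 7.21 and 2.45 CPM. It reached 5 counts in 21 of 77 Tph1-high cells (27.3%), 4 of 31 Neurog3-positive cells (12.9%), 2 of 45 peptide-high cells and 5 of 115 unclassed cells. Against unclassed cells, its log2 fold change of 4.42 ± 1.58 did not pass with edgeR (adjusted p = 0.298), though DESeq2 (adjusted p = 0.00546) and limma on cell means (adjusted p = 0.0441) passed it. Most Tph1-high cells held none: the median cell was at 0 CPM, and the highest at 760 CPM.

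Cacna1h, the pore-forming subunit of a low-voltage-activated T-type channel, was found in both hormone classes. Its level was 9.76, 163, 94.0 and 43.8 CPM in Tph1-high cells and 45.5, 67.7 and 74.9 CPM in peptide-high cells, against 2.03, 38.8, 8.87 and 10.8 CPM in unclassed cells. Every peptide-high plate was above every unclassed plate, whereas the Tph1-high plates overlapped them through the low value of duodenum plate 1. The share of cells with at least 5 counts was 50.6% in Tph1-high, 40.0% in peptide-high, 16.1% in Neurog3-positive and 14.8% in unclassed cells. Neither class passed against unclassed cells: Tph1-high cells gave 2.19 ± 0.66 on the log2 scale (edgeR adjusted p = 0.201) and peptide-high cells 1.81 ± 0.75 (edgeR adjusted p = 0.503).

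Cacna2d1, an α2δ subunit that raises the number of channels at the membrane, stood at 148, 213 and 125 CPM in peptide-high cells and at 74.4, 56.4, 3.63 and 94.7 CPM in unclassed cells, with no overlap. In Tph1-high cells it was at 214, 173, 203 and 84.5 CPM, a range that overlapped the unclassed plates through the jejunum plate. Peptide-high against unclassed cells gave 1.73 ± 0.93 on the log2 scale and did not pass (edgeR adjusted p = 0.615). At least 5 counts were present in 64.9% of Tph1-high and 15.7% of unclassed cells, and limma on cell means, which weights all cells alike, passed the gene in Tph1-high cells (adjusted p = 0.0220).

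Cacnb3, a cytoplasmic β subunit, was at 122, 86.3, 192 and 110 CPM in Tph1-high cells, narrowly above every unclassed plate (65.2, 77.0, 83.7 and 77.9 CPM). The difference from unclassed cells, 0.50 ± 0.59 on the log2 scale, did not pass (edgeR adjusted p = 0.781). Against peptide-high cells the Tph1-high sum was the higher on 1 of 3 plates and the lower on 2. That estimate, 0.13 ± 0.69 on the log2 scale, did not pass (edgeR adjusted p = 0.998). The 2 Neurog3-positive sums of Cacnb3, 5.05 and 26.9 CPM, were below every unclassed plate. Neurog3-positive against hormone-high cells gave a log2 fold change of -2.86 ± 0.87, with the smallest p among channel genes in that comparison, which did not pass (edgeR adjusted p = 0.224). Cacna1c, the other L-type subunit, was below 70 CPM in every sum, with Tph1-high plates from 0.347 to 21.9 CPM and a highest peptide-high plate of 63.7 CPM.

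**Figure D2:**
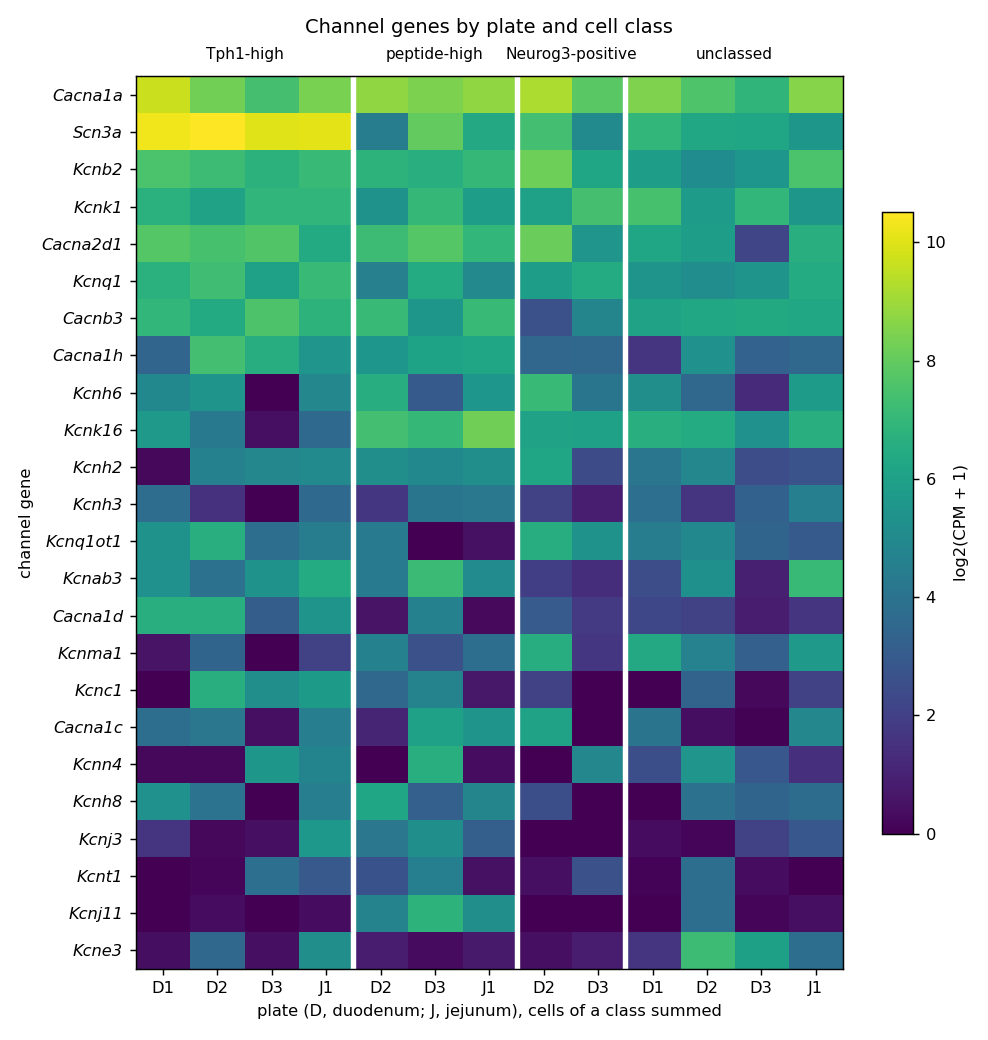
Level of 24 channel genes, as log2(CPM + 1) on a colour scale, in the 13 sums of a class on a plate, with genes ordered by the number of cells with at least 5 counts. Columns are plates (D1 to D3, duodenum; J1, jejunum) grouped by class. The bright Scn3a cells of the 4 Tph1-high columns (1017 to 1466 CPM) stand above all others in that row.

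Potassium channel genes whose peptide-high plates all lay above the unclassed plates come first. Kcnk16 encodes a background (tandem-pore) potassium channel best known from pancreatic islets (chr14:20261376-20269199 on GRCm38). It stood at 165, 128 and 301 CPM in peptide-high cells of duodenum plates 2 and 3 and the jejunum plate. In Tph1-high cells it was at 48.6 CPM on duodenum plate 1, 18.0 CPM on plate 2, 0.347 CPM on plate 3 and 11.2 CPM on the jejunum plate. The Tph1-high and peptide-high ranges did not overlap, and the unclassed plates, at 99.5, 88.8, 39.1 and 94.3 CPM, lay below the peptide-high range and overlapped the Tph1-high range through duodenum plate 3. Peptide-high against unclassed cells gave 1.48 ± 0.85 on the log2 scale, which did not pass (edgeR adjusted p = 0.632). Tph1-high against peptide-high cells gave a log2 fold change of -4.32 ± 1.01 (lower on 3 of 3 plates), which had the smallest p of the channel genes in this comparison and did not pass (edgeR adjusted p = 0.285; DESeq2 adjusted p = 7.04e-06; limma on cell means adjusted p = 0.0286).

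The Kcnk16 level came from a minority of cells. At least 5 counts were present in 18 of 45 peptide-high cells (40.0%), 32 of 115 unclassed cells (27.8%), 8 of 31 Neurog3-positive cells (25.8%) and 9 of 77 Tph1-high cells (11.7%), and after thinning the shares were 55.6%, 39.1%, 32.3% and 24.7%. By hormone, it reached 5 counts in 8 of 16 Ghrl-high cells, 12 of 31 Cck-high cells, 5 of 11 Gcg-high cells and 1 of 10 Gip-high cells. The highest Gip-high cell held 4.88 CPM, against 1433 CPM in the highest Ghrl-high cell. The Gip-high cells were few, and the difference was not tested.

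Kcnj11 encodes the pore of the ATP-sensitive potassium channel, which closes when glucose metabolism raises ATP. It was at 25.2 CPM on duodenum plate 2, 110 CPM on plate 3 and 35.5 CPM on the jejunum plate in peptide-high cells. In Tph1-high cells 0 counts were seen on duodenum plates 1 and 3, and 0.276 and 0.267 CPM on duodenum plate 2 and the jejunum plate. Every summed peptide-high plate lay above every plate of the other classes, of which the highest was 13.1 CPM in unclassed cells of duodenum plate 2, 98.9% of it from 1 cell. Peptide-high against unclassed cells gave 5.62 ± 2.63 on the log2 scale, which did not pass (edgeR adjusted p = 0.572). Single cells also weighed on the peptide-high sums. The well with the most Kcnj11 counts, 332, was a peptide-high cell of duodenum plate 3 and held 26.5% of the counts over all cells. Tph1-high against peptide-high cells gave a log2 fold change of -8.66 ± 2.46 that did not pass with edgeR (adjusted p = 0.475), though DESeq2 (adjusted p = 1.32e-04) and limma on cell means (adjusted p = 0.0206) passed it.

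At the level of cells, 9 of 45 peptide-high cells held at least 5 counts of Kcnj11 (20.0%, exact 95% interval 9.58 to 34.6%), as did 1 of 115 unclassed cells and 0 of 77 Tph1-high cells (upper bound of the exact interval 4.68%). The 9 cells were spread over duodenum plates 2 and 3 and the jejunum plate, with 3 on each, and all 4 hormone rules had some. The Neurog3-positive sums of duodenum plates 2 and 3 held 0 counts. Taking 3 counts over both sums as the limit, this is at least 76.2-fold below the hormone-high cells of those plates. It is at least 18.7-fold below their unclassed cells. Both bounds rest on few cells. A single peptide-high well held 332 of the 698 hormone-high counts, and the Tph1-high sums were at most 0.276 CPM. A single cell held most of the 178 unclassed counts. Abcc8, the sulfonylurea receptor that completes the same channel and is not a member by symbol, was likewise at 54.1, 78.2 and 61.2 CPM in peptide-high cells and at most 0.737 CPM in Tph1-high cells. Its log2 fold change between these classes was -8.98 and did not pass (edgeR adjusted p = 0.292).

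Kcnj3, a subunit of the G protein-gated inward rectifier, stood at 17.0, 37.0 and 8.05 CPM in peptide-high cells and at 0.280, 0.148, 3.11 and 6.31 CPM in unclassed cells, without overlap. A single cell supplied 89.3% and all of the peptide-high counts on duodenum plates 2 and 3. Its log2 fold change was 4.48 ± 2.02 and did not pass (edgeR adjusted p = 0.549). In Tph1-high cells it was at most 2.11 CPM on the duodenum plates and 47.6 CPM on the jejunum plate, where 8 of 27 cells held at least 5 counts. The Neurog3-positive sums of duodenum plates 2 and 3 held 0 counts, at least 34.1-fold below the hormone-high cells of those plates, taking 3 counts over both sums as the limit. Most of those hormone-high counts came from the single peptide-high cells named above, so this bound rests on few cells. Kcnh2, which encodes a channel of the ether-à-go-go family that repolarises cardiac muscle, was at 36.1, 29.1 and 35.7 CPM in peptide-high cells, just above the highest unclassed plate (28.5 CPM), and its 4 Tph1-high plates ran from 0.163 to 30.9 CPM. The Kcnh2 estimate of peptide-high over unclassed cells, 1.05 ± 1.67 on the log2 scale, did not pass (edgeR adjusted p = 0.875).

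Kcnc1, Kcnq1 and Kcnq1ot1 each had their highest tested sum in Tph1-high cells. Kcnc1, a fast-activating channel of neurons that fire at high rates, reached 5 counts in 20 of 77 Tph1-high cells (26.0%), 3 of 45 peptide-high cells, 1 of 31 Neurog3-positive cells and 4 of 115 unclassed cells. Its level was 0, 97.1, 35.4 and 51.7 CPM in Tph1-high cells and 0, 9.12, 0.173 and 3.16 CPM in unclassed cells. Duodenum plate 1 held 0 counts in both classes, and on the other 3 plates the Tph1-high sum was the higher. On the log2 scale the difference was 3.98 ± 1.82 and did not pass (edgeR adjusted p = 0.405). Kcnq1, a slow channel that pairs with small Kcne subunits, stood at 105, 157, 63.7 and 136 CPM in Tph1-high and at 23.1, 87.2 and 29.7 CPM in peptide-high cells, so the Tph1-high sum was the higher on 2 of 3 plates. The estimate of 1.56 ± 0.67 on the log2 scale did not pass (edgeR adjusted p = 0.621). At least 5 counts of Kcnq1 were present in 48.4% of Neurog3-positive, 42.9% of Tph1-high, 33.0% of unclassed and 24.4% of peptide-high cells.

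The reads of Kcnq1 and of Kcnq1ot1, a noncoding RNA transcribed from the opposite strand inside the same gene (chr7:143203458-143296549), cannot be told apart unless the counting used strand, which is not given in the sources used here. Kcnq1ot1 was at 40.0, 99.8, 13.0 and 21.1 CPM in Tph1-high cells and at 19.8, 0 and 0.388 CPM in peptide-high cells. On each plate with both classes the Tph1-high sum was the higher, and across plates the ranges overlapped. This difference was 3.94 ± 1.38 on the log2 scale and did not pass with edgeR (adjusted p = 0.567), whereas DESeq2 passed it (adjusted p = 0.00322). The Neurog3-positive sums of Kcnq1ot1 ran from 41.6 to 93.3 CPM, above every unclassed plate (6.78 to 29.1 CPM). At least 5 counts were present in 22.6% of Neurog3-positive, 20.8% of Tph1-high, 13.0% of unclassed and 2.22% of peptide-high cells. Neurog3-positive against hormone-high cells gave 2.93 ± 1.26 on the log2 scale, which did not pass (edgeR adjusted p = 0.403).

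Kcnma1 was low in Tph1-high cells, and Kcne3 in peptide-high and Neurog3-positive cells. Kcnma1, the pore of the large-conductance calcium-activated channel, was at 0.488, 9.58, 0 and 3.25 CPM in Tph1-high cells and at 80.0, 24.6, 8.30 and 51.2 CPM in unclassed cells. The ranges touched: the highest Tph1-high plate exceeded the lowest unclassed plate. Peptide-high cells, at 23.9, 5.12 and 13.0 CPM, overlapped both, and 6 of 45 of them held at least 5 counts, beside 16 of 115 unclassed and 3 of 77 Tph1-high cells. The log2 fold change was -4.78 ± 1.37 (lower on 4 of 4 plates) and did not pass with edgeR (adjusted p = 0.179), whereas DESeq2 passed it (adjusted p = 7.25e-05). Lrrc26, an auxiliary subunit of the same channel, was at 50.6, 8.60, 9.68 and 0 CPM in unclassed cells and at most 0.488 CPM in Tph1-high cells (edgeR adjusted p = 0.194). The goblet markers were higher in the unclassed cells on the same plates, by the values given above.

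Kcne3, a small subunit that pairs with Kcnq1 in epithelia that secrete chloride, stood at 2.10, 149, 62.5 and 13.0 CPM in unclassed cells and at 0.799, 0.233 and 0.679 CPM in peptide-high cells. Those plates did not overlap, whereas the Tph1-high plates, at 0.325, 10.4, 0.347 and 36.1 CPM, overlapped the unclassed range and on the jejunum plate exceeded the unclassed sum. The Neurog3-positive sums were as low as the peptide-high ones, at 0.360 to 0.720 CPM. Only 10 cells in all held at least 5 counts, 7 of them unclassed and 3 Tph1-high. A single well of duodenum plate 2 supplied 34.7% of all Kcne3 counts. After thinning, at least 1 count was present in 8.89% of peptide-high, 6.45% of Neurog3-positive, 6.49% of Tph1-high and 10.4% of unclassed cells. Peptide-high against unclassed cells gave a log2 fold change of -7.50 ± 1.80 that did not pass with edgeR (adjusted p = 0.189), whereas DESeq2 passed it (adjusted p = 1.22e-06).

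None of the remaining potassium channel genes passed the edgeR test in a class comparison. Kcnb2, a delayed rectifier (129 cells with at least 5 counts), and Kcnk1, a weakly rectifying background channel (126 cells), were broadly present, with 33.5 to 291 CPM and 39.9 to 175 CPM over the 13 sums. Kcnh6, of the ether-à-go-go family, was at 134 and 15.8 CPM in Neurog3-positive cells, and the estimate over unclassed cells, 2.95 ± 1.35 on the log2 scale, did not pass (edgeR adjusted p = 0.772). Kcnab3, a cytoplasmic β subunit, was at 2.88 and 1.58 CPM in Neurog3-positive cells and ranged from 0.922 to 137 CPM in unclassed cells. Kcnn4, a calcium-activated channel of intermediate conductance, ran from 0.163 to 46.5 CPM in Tph1-high and from 0 to 96.1 CPM in peptide-high cells. Kcnh3, Kcnh8 and Kcnt1 stayed at or below 22.1, 72.2 and 22.1 CPM in every sum.

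**Figure D3:**
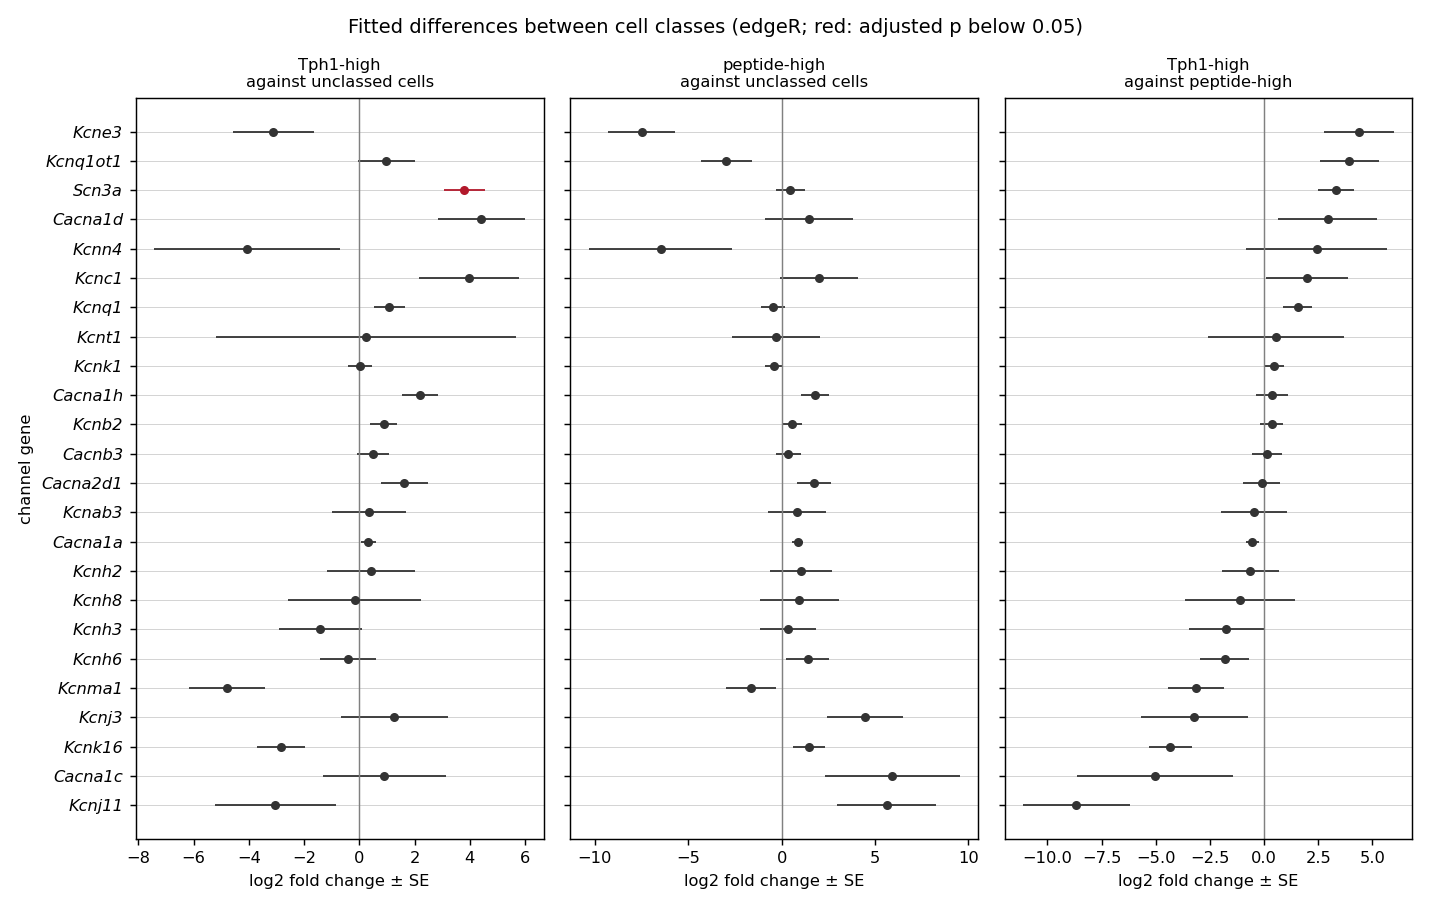
Fitted log2 fold changes ± SE of 24 channel genes in 3 class comparisons (edgeR), with genes ordered by the Tph1-high against peptide-high difference. Red marks an adjusted p below 0.05, which only Scn3a in Tph1-high against unclassed cells reached. In the right panel Scn3a lies at 3.31, and Kcnk16 and Kcnj11 at -4.32 and -8.66.

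Over the list, 1 of 27 channel genes, Scn3a, passed with edgeR in Tph1-high against unclassed cells, where 1.69% of the 15043 genes tested passed. DESeq2 passed 7 (10.8% of all genes) and limma on cell means 3 (4.97%). Over the plates, 3 channel genes were higher without overlap (Scn3a, Cacna1d and Cacnb3; 5.45% of all genes) and 0 lower (4.47%). At an unadjusted p under 0.05, 7 of 27 were reached, against 12.8% of all genes. The median log2 fold change of the 27 was 0.42, beside -0.04 over all genes.

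In peptide-high against unclassed cells 0 of 27 passed with edgeR (0.16% of all genes), 3 had an unadjusted p under 0.05 (9.31%), DESeq2 passed 4 (8.23%) and limma 1 (0.864%). Here 6 were higher without overlap (5.41% of all genes), namely Kcnk16, Kcnj11, Kcnj3, Kcnh2, Cacna1h and Cacna2d1, and 1, Kcne3, was lower (5.54%). The median log2 fold change was 0.86, beside -0.24 over all genes. The comparisons with unclassed cells share those cells, so their values stand side by side and are not independent of each other.

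Between the hormone classes, 0 of 27 passed with edgeR (0.0997% of all genes), although 8 had an unadjusted p under 0.05 (7.78%), DESeq2 passed 6 (6.22%) and limma 3 (0.924%). Scn3a was higher in Tph1-high cells without overlap (4.38%), and Kcnk16 and Kcnj11 were lower (3.48%).

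In Neurog3-positive against unclassed cells 0 of 27 passed with edgeR (0.0% of all genes), 5 had an unadjusted p under 0.05 (6.26%), DESeq2 passed 4 (7.93%) and limma 0. Kcnq1ot1 was among 3 that were higher without overlap (3.88% of all genes), and Cacnb3, Kcnj3 and Kcne3 were lower (10.7%). Against the mean of the hormone classes 0 passed with edgeR (0.884%), 6 had an unadjusted p under 0.05 (11.8%), DESeq2 passed 8 (15.2%) and limma 1, Scn3a (1.83%). Both comparisons rest on 2 Neurog3-positive sums of 7 and 16 cells.

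**Figure D4:**
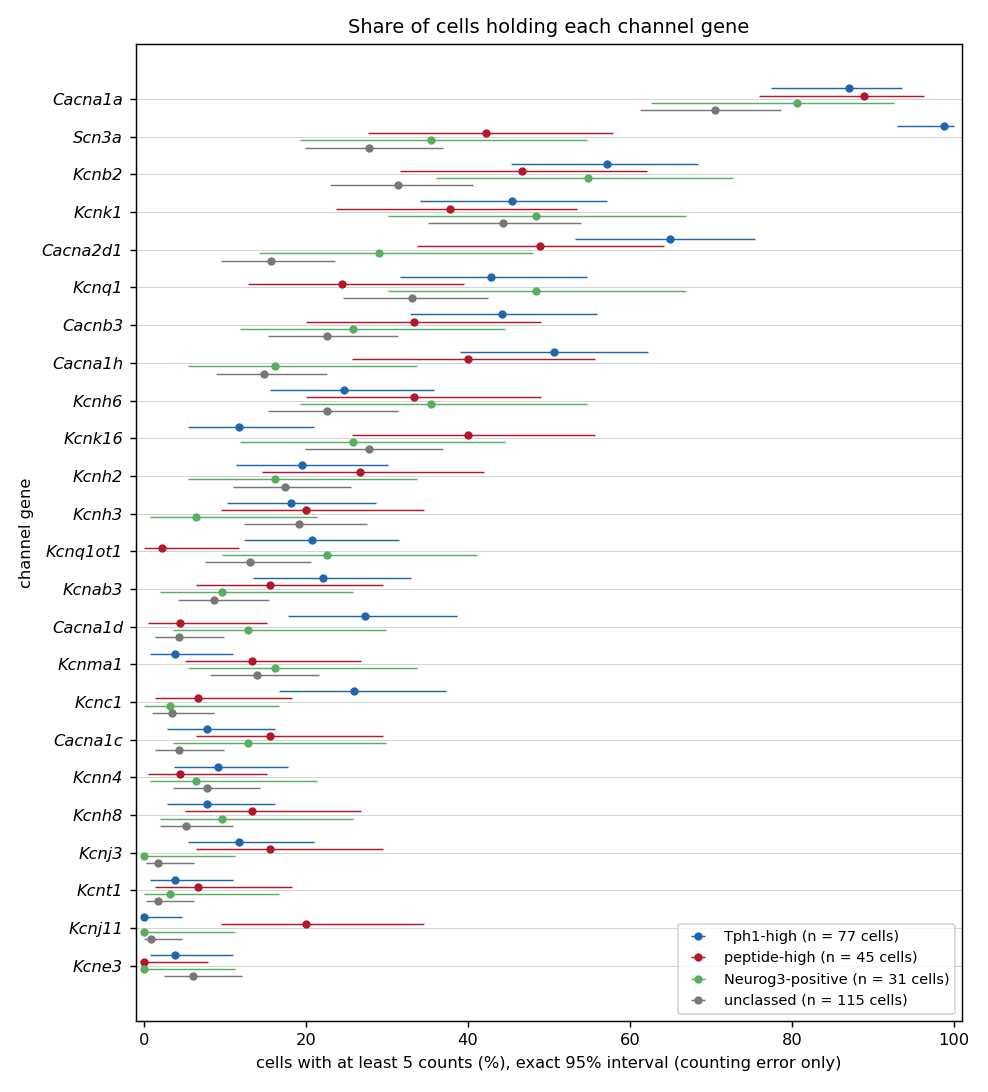
Share of cells with at least 5 counts of 24 channel genes in the 4 classes, with exact 95% intervals that cover counting error only. Scn3a in Tph1-high cells (98.7%) lies clear of the other classes, and Kcnj11 exceeds 1% only in peptide-high cells (20.0%).

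The number of channel genes per cell was counted in each class. A median of 7 of the 27 had at least 5 counts in a Tph1-high cell, 6 in a peptide-high cell, 6 in a Neurog3-positive cell and 4 in an unclassed cell. After thinning to 100000 counts, with at least 1 count, the medians were 8, 8, 6 and 5. On the 4 plates the thinned medians were 7, 8, 7 and 9 in Tph1-high cells and 5, 7, 5 and 7 in unclassed cells, higher in the Tph1-high cells of each plate. Over all genes, the median number detected per cell stood in the same order, with 5066 in Tph1-high, 4882 in peptide-high, 4361 in Neurog3-positive and 4175 in unclassed cells. The part this plays in the channel counts was not tested.

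A list of 60 genes that work with such channels but lie outside the symbol rule was examined beside them, of which 33 were tested in the class comparisons. Trpa1, an irritant-gated cation channel of enterochromaffin cells, was at 46.0, 362, 272 and 147 CPM in Tph1-high cells and at 0.140, 1.33, 0.576 and 0.818 CPM in unclassed cells. It was the only partner gene to rise there, by 7.87 ± 1.28 on the log2 scale (edgeR adjusted p = 0.0140), and 0 fell. In the other class comparisons 0 of 33 partner genes passed with edgeR. At an unadjusted p under 0.05 the partner counts were 5 of 33 in Tph1-high against unclassed cells (15.2%, beside 12.8% of all genes), 3 in peptide-high (9.09%, beside 9.31%) and 4 in Neurog3-positive against unclassed cells (12.1%, beside 6.26%). They were 5 between the hormone classes (15.2%, beside 7.78%) and 8 in Neurog3-positive against hormone-high cells (24.2%, beside 11.8%).

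For jejunum against duodenum, the counts of a whole plate were added up. Kcnab3 stood at 20.4, 22.2 and 23.4 CPM on the duodenum plates and 78.7 CPM on the jejunum plate, and Kcnj3 at 7.49, 4.08 and 7.80 CPM against 36.6 CPM. In both the jejunum plate lay outside the duodenum range. The log2 fold changes were 1.83 ± 0.53 and 2.5 ± 0.85 and did not pass (edgeR adjusted p = 0.934 for each). With edgeR 0 of 27 passed (0.0% of all genes), 2 had an unadjusted p under 0.05 (4.23%), and DESeq2 (3.72% of all genes) and limma passed 0. There is 1 jejunum plate, so tissue and plate cannot be told apart.

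Between the duodenum plates, Kcne3 was at 1.34 CPM at 39 weeks and at 55.7 and 29.1 CPM at 12 weeks, and Cacna1h at 3.72 CPM against 73.9 and 39.5 CPM. Kcnj11 had 0 counts at 39 weeks, where 3 counts would be 0.126 CPM, against 10.5 and 12.6 CPM. In all 3 genes the older plate was the lowest. Kcne3 and Cacna1h were named for the smallest p in this comparison, and Kcnj11 was added outside that rule. Their shared direction is thus no separate result: over the 27 channel genes 15 estimates were below 0 and 12 above. The log2 fold changes were -5.11 ± 0.90 for Kcne3 (edgeR adjusted p = 0.488) and -4.06 ± 0.76 for Cacna1h (edgeR adjusted p = 0.548) and did not pass. With edgeR 0 of 27 passed (0.0% of all genes), 5 had an unadjusted p under 0.05 (7.62%), DESeq2 passed 5 (4.95%), limma 0, and edgeR without a filter on low counts 4 (0.805% of all genes). The 39-week plate held 2 peptide-high cells of 72 in all, age and plate cannot be told apart, and a lower level in a plate sum does not separate fewer cells of a class from less RNA per cell. Within Tph1-high cells alone, Cacna1h was also lowest on that plate (9.76 CPM against 163 and 94.0 CPM).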

How the data were processed

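Single sorted cells of 4 plates were profiled with the BD Precise WTA kit, per the labels' protocols. The deposited table holds raw counts, whole numbers for each gene in 290 wells left after a cell filter by the authors, whose terms are not stated in the labels. The submitters' processing notes name bcl2fastq 2.17.1.14, cutadapt 1.10, Bowtie2 2.2.8, STAR 2.5.3a, UMI-tools 0.4.4, HTSeq 0.6.1 and mm10, with no role or order. As the largest value was 643177, counts were taken to be reads, PCR copies possibly among them. Columns were matched to samples by the number that ends both the column name and the sample title. No label states this match, and tissue and age rest on it; 0 columns were left unassigned. Plates held 23893272 to 46490618 counts and cells 202711 to 2312044. Nothing in the labels says how many cultures or animals stand behind the plates, so p-values measure the spread between plates. No doublet caller was run on these wells of 1 sorted cell each.

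Counts were summed per plate and class (at least 5 cells) and tested with edgeR 4.0.16 in R 4.3.3: quasi-likelihood test, TMM normalization, filterByExpr, plate as a block, Benjamini-Hochberg adjustment over all genes tested, threshold 0.05. All 13 sums shared 1 fit with 6 residual degrees of freedom. The SE printed with an edgeR estimate is the absolute log2 fold change divided by the square root of the quasi-likelihood F statistic. It is not a standard error given by the fit. The 6 genes that define the classes were left out of the gene counts. Plates pair the classes because each plate is 1 sample in the labels and holds cells of every class. Plate comparisons used the sums of all cells. Alternatives were DESeq2 1.42.0, limma 3.58.1 on the mean over cells of log2(CPM + 10), RLE scaling, no low-count filter, no plate block, class limits halved or doubled, cells of more than 1 rule as a 5th class, and each plate left out. Leaving out unclassed cells rich in goblet and Paneth markers was added after seeing the data. The edgeR fit was tested on simulated data. Promoters and their starts come from RefSeq on GRCm38.p6, gene positions from GRCm38 with GENCODE M21.

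In each class comparison the channel genes past the threshold are named, or up to 8 with the smallest p, and 2 in plate comparisons. Kcnj11 was added to these in the age comparison. Of the 27 channel genes, 3 are not reported here by name, though the counts over the list include them. Partner genes are named when past the threshold, and Abcc8 and Lrrc26 were named after their values were seen. Channel genes, class rules and lists were chosen with earlier results of these data known.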

Additional observations from a re-analysis of the deposited data

Results flagged for a closer look

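In 1 of 26 combinations of a channel gene and a class with 4 plates, the highest plate stood far from the other 3 relative to the range, which chance alone gives in about 1 in 20. Kcnj11 in unclassed cells was at 13.1 CPM on duodenum plate 2 against 0.351 CPM or less elsewhere, and 98.9% of those counts were in 1 cell.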

How the results depend on the processing

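Counts of called channel genes changed mainly with the tool. In Tph1-high against unclassed cells the 1 call became 7 with DESeq2 and 3 with limma on cell means, and 0 with class limits halved or without the goblet- and Paneth-rich unclassed cells. Leaving out a plate gave 0 to 1 (0 without duodenum plate 1, duodenum plate 3 or the jejunum plate). In peptide-high against unclassed cells 0 became 4 with DESeq2, 1 with limma and 1 with class limits doubled, and in Neurog3-positive against unclassed cells 4 with DESeq2. Between the hormone classes 0 became 6 with DESeq2 and 3 with limma, and in Neurog3-positive against hormone-high cells 8 with DESeq2, 1 with limma and 1 with limits halved. In the age comparison 0 became 5 with DESeq2 and 4 without a low-count filter. In these comparisons and in jejunum against duodenum, leaving out a plate gave 0 wherever it could be fitted, which the age comparison and the jejunum plate could not. The causes were not tested. Without the replicate block by plate the Tph1-high count stayed at 1, with 158 in place of 254 calls over all genes, and the other class counts at 0.

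Of 464 alternative values for 38 results on named genes, 428 kept direction and side of the threshold, 30 newly passed, 5 no longer passed (all Scn3a in Tph1-high against unclassed cells) and 1 reversed. The reversal was Kcnab3 in Neurog3-positive against unclassed cells, with a log2 fold change of 1.23 without the goblet- and Paneth-rich cells against -3.52. The share of unclassed cells with Scn3a was 27.8% at 5 counts and 52.2% at 1 count after thinning. The median log2 fold change over all genes moved with the scaling, for example in peptide-high against unclassed cells from -0.24 with TMM to -0.16 with RLE and 0.01 with limma, so small differences between classes depend on it. Low counts, 2 Neurog3-positive sums and 1 jejunum and 1 39-week plate limit the precision.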
